A study of Mus musculus with 16 samples.

Results

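Among 8 lungs of ovalbumin-challenged mice, 3 carried more RNA of skeletal muscle, stratified squamous epithelium and fat genes than the other 5, on which many of these genes were at background and others were present at lower levels. The 3 were chosen by measured values, as the challenged arrays whose deposited intensity for Acta1, the skeletal muscle actin, exceeded 1000. They were wild-type challenged 1, wild-type challenged 3 and mutant challenged 2, so 3 of the 8 challenged and 3 of all 16 arrays were members. The lowest Acta1 intensity inside the threshold was 7830 and the highest outside it was 148. The other 5 challenged arrays were wild-type challenged 2 and 4 and mutant challenged 1, 3 and 4. Because Acta1 chose the arrays, every difference between the 3 and the other 5 is given below as a description without a p-value. Many single-gene differences carry a standard error (SE). Some genes with none of the other 5 above background are given as a bound on the fold, without an SE.

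The study measured lung RNA of female C57BL/6N mice aged 17 weeks on Illumina bead arrays, with 4 wild-type and 4 Cox4-2 mutant mice in each of an untreated and a challenged group. Cox4-2, named Cox4i2 on the array, encodes an isoform of a cytochrome c oxidase subunit. Challenged mice of both genotypes were sensitised intraperitoneally with 10 µg ovalbumin in 2 mg alum and later inhaled an aerosol of 1% ovalbumin for 30 min on 3 occasions. The labels list no treatment for the untreated mice of either genotype, and they state neither how the mutant allele was made nor in which cells it acts. Each array held the RNA of 1 mouse, extracted from part of its lung.

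Skeletal muscle contracts through sarcomeres, in which thick filaments of myosin pull on thin filaments of actin under the control of the calcium-binding troponin complex. Stratified squamous epithelium, found in the oesophagus, the mouth and the epidermis, lays down keratins in its basal and upper layers and builds a cornified envelope from loricrin, small proline-rich proteins and late cornified envelope proteins in its outermost cells. White fat stores triglyceride and secretes hormones such as adiponectin, brown fat burns it for heat, and both lie around the lung root and in the mediastinum with lymph nodes. A lung removed for RNA consists mainly of alveolar, airway, endothelial and immune cells, and striated muscle of its own is limited to the heart-like muscle sleeves of the pulmonary veins.

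The 4 marker genes of these tissues differ in the DNA before their starts. The stretches below are the 250 bases before each RefSeq gene start (GRCm38.p6), shown because the 4 genes stand for the tissues described here and were all high on the 3 arrays. Capitals mark matches, on either strand, to TATAAA, to CAGCTG (the form of E box common in muscle promoters) and to the CArG box, the serum response factor site known from actin promoters.
Acta1 (chr8:123894776-123895025, minus strand): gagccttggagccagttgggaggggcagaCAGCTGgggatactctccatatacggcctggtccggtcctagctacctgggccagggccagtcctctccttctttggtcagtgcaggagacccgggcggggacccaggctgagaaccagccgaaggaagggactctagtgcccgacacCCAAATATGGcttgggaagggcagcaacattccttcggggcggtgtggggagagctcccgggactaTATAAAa
Krt13 (chr11:100121567-100121816, minus strand, the more upstream of 2 annotated starts): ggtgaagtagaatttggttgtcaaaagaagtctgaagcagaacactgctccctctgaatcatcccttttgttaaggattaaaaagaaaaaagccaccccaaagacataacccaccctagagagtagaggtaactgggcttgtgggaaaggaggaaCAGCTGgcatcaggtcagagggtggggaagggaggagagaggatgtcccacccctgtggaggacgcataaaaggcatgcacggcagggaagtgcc
Adipoq (chr16:23146286-23146535, plus strand): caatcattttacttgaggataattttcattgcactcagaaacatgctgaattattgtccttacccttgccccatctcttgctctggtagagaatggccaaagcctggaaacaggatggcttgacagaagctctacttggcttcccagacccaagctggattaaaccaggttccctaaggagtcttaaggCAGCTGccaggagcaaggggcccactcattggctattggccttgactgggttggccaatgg
Glycam1 (chr15:103565082-103565331, minus strand): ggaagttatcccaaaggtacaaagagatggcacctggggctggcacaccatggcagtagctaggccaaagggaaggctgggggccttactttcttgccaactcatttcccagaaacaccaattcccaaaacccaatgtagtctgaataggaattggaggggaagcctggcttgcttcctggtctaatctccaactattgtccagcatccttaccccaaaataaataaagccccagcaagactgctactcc
The stretch of Acta1 held 1 match to each of the 3 motifs, those of Krt13 and Adipoq 1 CAGCTG each, and that of Glycam1 none. Among all 32851 windows of the same length, 12.4% held TATAAA, 13.001% CAGCTG and 1.47% a CArG box. No 2 of the motifs overlapped in these 4 stretches, and a match is a description of the letters and not evidence of a bound site.

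Acta1 itself, which builds the thin filament of skeletal muscle, had intensities of 14600 on wild-type challenged 1, 16800 on wild-type challenged 3 and 7830 on mutant challenged 2. On the other 5 arrays, in the order wild-type 2 and 4 and mutant 1, 3 and 4, it stood at -3.07, 148, 62.7, 118 and 73. The 3 lay far above the rest, and of the rest wild-type challenged 2 alone was not above the background limit of 16.8, the upper end of the noise around 0 (percentile 95). None of the 8 untreated arrays was above background for Acta1, with a highest value of 1.06. The genotype-adjusted log2 difference between the 3 and the other 5 was 7.28 (SE 0.80). Intensities in the following paragraphs keep this order of arrays, first the 3 and then the other 5.

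Krt13, the keratin of upper layers of mucosal squamous epithelium, stood at 3970, 3990 and 2260 on the 3 arrays. The other 5 gave -5.64, 55.3, -8.4, 50 and 75.5, and the untreated arrays -14.5 to 4.12. Both wild-type arrays were again above mutant challenged 2, and among the other 5 a trace was present on wild-type challenged 4 and mutant challenged 3 and 4 and not on wild-type challenged 2 and mutant challenged 1. Its log2 difference was 6.15 (SE 0.70). Adipoq, the fat cell hormone adiponectin, stood at 2060, 1820 and 1460 on the 3 arrays. Here the other 5 were not empty, with 30, 18.1, 179, 219 and 96.6, and the untreated arrays reached 101 to 235 with a median of 161. The groups did not overlap, and the 2 remaining wild-type challenged arrays were lower than every untreated array. The log2 difference was 4.54 (SE 0.62). Glycam1, a mucin-like ligand made by the high endothelial venules through which lymphocytes enter lymph nodes, stood at 377, 101 and 559 on the 3 arrays. None of the other 5 was above background, with a highest value of 14.4, and the untreated arrays lay at 5.25 to 25.6. Glycam1 was at least 16.5-fold higher on the 3 arrays, and it ranked them differently from the other markers, with mutant challenged 2 highest and wild-type challenged 3 lowest.

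**Figure D1:**
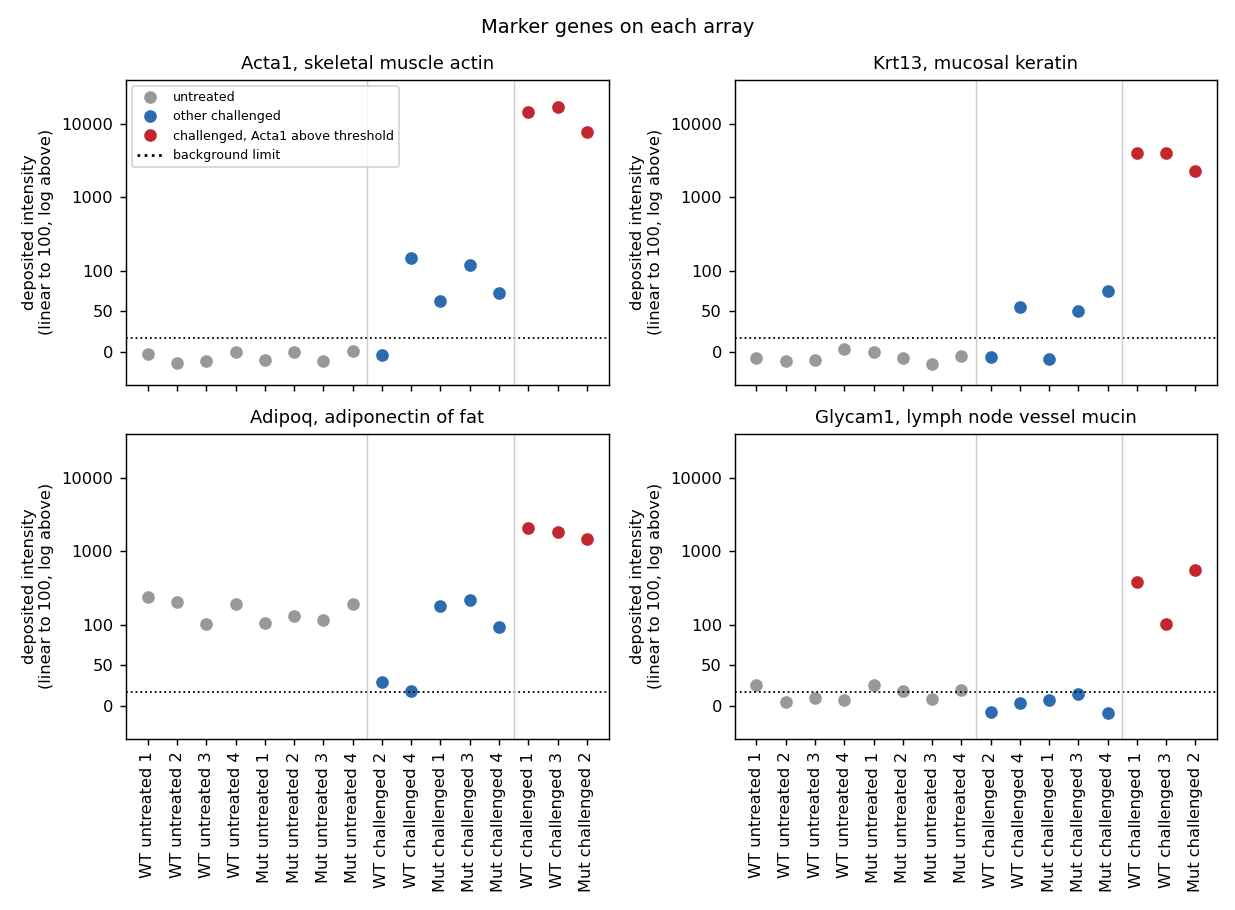
Deposited intensity of the 4 marker genes on each of the 16 arrays, on an axis that is linear up to 100 and logarithmic above it; grey points are untreated, blue points the other 5 challenged and red points the 3 Acta1-high arrays, and the dotted line is the background limit of 16.8. The red points lie above all blue and grey points in each panel, Acta1 reaching 7830 to 16800 on the 3 arrays and at most 148 elsewhere.

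Over the whole array, 172 of 17850 genes or unnamed probes (0.964%) were apart in the upward direction, meaning that all 3 arrays lay above all of the other 5 and that the genotype-adjusted difference was at least 1 on the log2 scale. Only 1 gene (0.0056%) was apart downward. Without the limit on size, all 3 arrays lay above all of the other 5 for 623 of the 17850 and below them for 734. The rule chose these arrays by a gene of the same contrast, so these counts and shares are description alone. The median difference over all 17850 was -0.02, and 82 of the 172 differed by at least 2 on the log2 scale. On 40 of the 172 genes none of the other 5 arrays was above background, on 46 none of the untreated arrays was, and for 152 the 3 arrays also lay above all 8 untreated arrays. The 172 genes made up 1.17% to 2.27% of the summed signal on the 3 arrays, 0.178% to 0.298% on the other 5 and 0.220% to 0.356% on untreated arrays. The 12 largest differences were those of Acta1, Tnnc2, Myh8, Krt13, Mylpf, Lor, Myh2, Krtdap, Atp2a1, Crct1, Lce3f and Tnnt3, 7 genes of skeletal muscle and 5 of squamous epithelium.

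Lung and challenge genes were also examined on the 3 arrays. Rank correlations over the 12086 features above background on at least 3 arrays were 0.976 to 0.983 among the 3. They were 0.973 to 0.983 among the other 5 and 0.954 to 0.974 between them. With untreated arrays, over all 17850 features, correlations were 0.947 to 0.960 for the 3 and 0.951 to 0.968 for the other 5. Those with untreated arrays are on other features and cannot be set against the rest. Sftpc, surfactant protein C of alveolar type 2 cells, stood at 30100, 28700 and 29400 on the 3 arrays and at 29400 to 32000 on the other 5. It is a single gene, picked outside the naming rule given below. Median log2 differences of lung cell lists were -0.01 for alveolar type 2, -0.09 for alveolar type 1 and -0.05 for club cells. They were -0.23 for ciliated and -0.17 for endothelial cells. Summed endothelial intensity was 50379.4 to 58322.7 on the 3 arrays and 58937.6 to 69140.3 on the other 5, whereas mean log2 levels of that list overlapped. Retnla, a cytokine-like protein induced in allergic inflammation, stood at 42600, 40700 and 40700 on the 3 arrays, within the 33100 to 44000 of the other 5 and above the 2570 to 27100 of untreated arrays. Other challenge genes were less even. Over a list of 30 allergic inflammation genes the log2 differences ran from -1.58 (Retnlb) to 0.34 (Chil3), with a median of -0.21. Muc5ac differed by -1.20, and no member of that list was apart. Cox4i2, measured by 1 probe, ranged over 182 to 305 on challenged wild-type and 104 to 243 on challenged mutant arrays, so these groups overlapped, whereas untreated wild-type (247 to 372) and untreated mutant arrays (77.5 to 189) did not, and no label says whether that probe lies in the altered part of the gene. In whole lung RNA, more cells of a type and more RNA per cell cannot be told apart, which applies to every tissue signal below.

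Genes of 31 lists covering tissues and cell types that a lung sample could hold accounted for 99 of the 172 genes (57.6%), out of 579 list genes on the array. The count of members apart upward was 23 of 30 for skeletal muscle filament genes, with a median log2 difference of 2.19. Counts of 10 or more were also found for skeletal muscle calcium handling and energy genes (17 of 31, median 1.46), the cornified layer (17 of 30, median 1.14), white fat (10 of 33, median 0.64) and squamous mucosa (16 of 42, median 0.34). Smaller counts came from the squamous basal layer (5 of 24, median 0.28), brown fat (4 of 20, median 0.16), B cells (4 of 23, median 0.53), smooth muscle (3 of 17, median 0.41) and lymph node stroma (2 of 20, median 0.17). A single member was apart in the lists of heart muscle, muscle transcription factors and alveolar macrophages. No list member was apart downward, and the lists of T cells, plasma cells, thymus, red blood cells, nerve, neurons, cartilage, tendon, thyroid, salivary gland, stomach and liver, mesothelium, allergic inflammation and the lung's alveolar, airway and endothelial cells had no member apart in either direction.

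**Figure D2:**
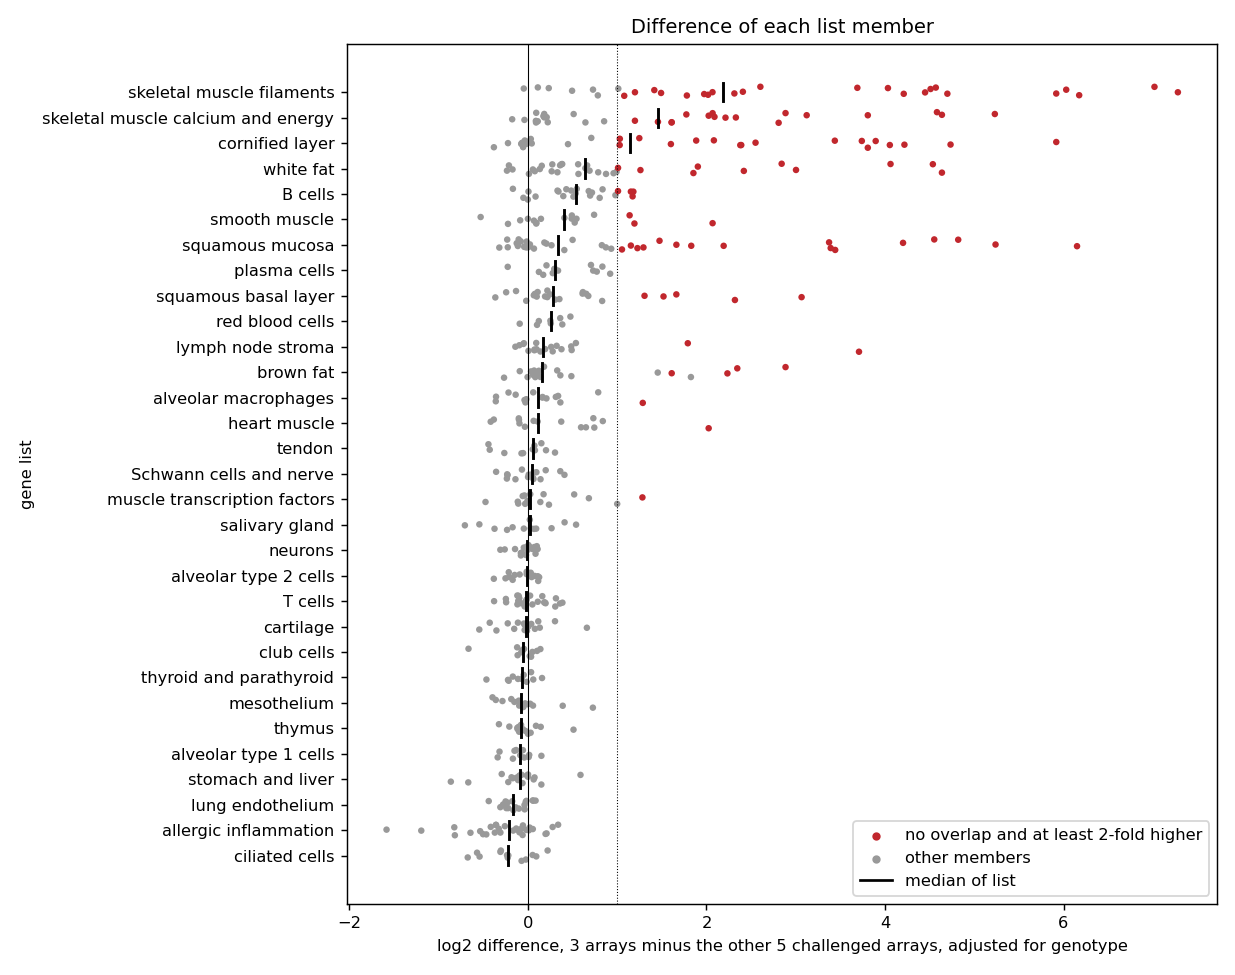
Log2 difference between the 3 Acta1-high arrays and the other 5 challenged arrays, adjusted for genotype, for every list member on the array (points), with the median of each list (black bars) and the dotted line at a difference of 1; red points are members for which all 3 arrays lay above all 5. The medians fall from 2.19 for skeletal muscle filaments to -0.23 for ciliated cells.

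Thin filament genes of skeletal muscle that stood apart included Acta1 and fast troponin subunits. Tnnc2, the calcium-binding troponin C of fast fibres, stood at 6150, 7140 and 2680 on the 3 arrays against -6.16, 45.7, 12, 15.3 and 17.1 on the other 5, a log2 difference of 7.02 (SE 0.43). Tnnt3, the fast troponin T, stood at 1850, 2280 and 806 against 32.7 to 48.9 and differed by 4.70 (SE 0.36). Both were highest on wild-type challenged 3 and lowest of the 3 on mutant challenged 2. Thick filament genes that stood apart included fast myosins. Mylpf, the regulatory light chain of fast myosin, stood at 2670, 3290 and 1150 against -6.98 to 24.3 and differed by 6.03 (SE 0.44). Myh2, the myosin heavy chain of fast oxidative fibres, stood at 2920, 4050 and 438, with none of the other 5 above background, and was at least 103-fold higher. Myh8, the perinatal myosin heavy chain that some head muscles keep in adult life, stood at 5270, 8240 and 6360 against 31.4, 155, 24.8, 123 and 114, a difference of 6.18 (SE 0.67). Of these genes Myh8 alone was not lowest on mutant challenged 2 among the 3, and Myh2 was the one on which that array fell furthest behind the wild-type arrays. Myosin heavy chain genes are similar in sequence, and binding of one gene's RNA to another's probe was not tested. Myh7, the slow and cardiac myosin heavy chain, did not stand apart, with 49.1, 40.3 and 36 against 31.4 to 52.4. Other slow-fibre genes, picked with their values in view, were mixed. Myl2 stood at 1290, 1390 and 129, with none of the other 5 above background, and was at least 36.5-fold higher. Myl3 differed by 4.21 (SE 0.32), Tnnt1 by 2.41 (SE 0.51), and Mybpc1 was at least 17.7-fold higher. Tnni1 and Tnnc1 were not apart, with differences of 0.23 and 0.49.

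Calcium handling and energy genes of muscle showed the same 3 arrays. Atp2a1, the calcium pump of the fast-fibre sarcoplasmic reticulum, stood at 4700, 5860 and 1660 against 59.8 to 88.1 on the other 5, and differed by 5.23 (SE 0.41). Ckm, the muscle creatine kinase, stood at 938, 1170 and 357 against -4.58 to 36.4 and differed by 4.58 (SE 0.51). Pvalb, the calcium buffer of fast fibres, stood at 526, 1390 and 174 against -1.08 to 24 and differed by 3.81 (SE 0.60). On each of these the order was wild-type challenged 3, wild-type challenged 1, mutant challenged 2, and the groups did not overlap. Mb, the oxygen-binding myoglobin that heart muscle also makes, was present in every lung, at 8100, 9640 and 2960 on the 3 arrays, 379 to 1190 on the other 5 and 681 to 1590 on untreated arrays. Its difference was 3.12 (SE 0.59).

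Heart muscle and muscle transcription factors were different. Sln, sarcolipin, which regulates the calcium pump in atrial and some skeletal muscle, was the 1 heart list member apart, with 2270, 2460 and 1280 against 247 to 984 and a difference of 2.02 (SE 0.55), and it is also on the skeletal calcium list. Nppa, the atrial natriuretic peptide, stood at 738, 743 and 901 inside the 207 to 1390 of the other 5. Actc1, the cardiac actin, stood at 2750, 2650 and 2210 against 1250 to 2410, so the groups overlapped at mutant challenged 3. Among the regulators, Myf6, the myogenic factor of mature fibres, stood at 64, 63.7 and 23.4, with none of the other 5 above background, and was at least 2.72-fold higher. Myod1, Myog and Myf5, which specify muscle precursors, were above background on none of the 3 arrays. Isl1, a homeobox gene of pharyngeal muscle and heart precursors and of some neurons, stood at 26.4, 37.7 and 30.1 with none of the other 5 above background, at least 1.85-fold higher, and its log2 difference fell just short of 1.

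Squamous genes included upper-layer, cornified and basal ones. Krtdap, a secreted protein of differentiating keratinocytes, stood at 2030, 2430 and 1030 against 8.5, 37.8, 4.75, 48.3 and 54.7, a difference of 5.24 (SE 0.55). Krt4, the keratin partner of Krt13 in mucosa, stood at 1400, 1290 and 792 against 10.4, 49.4, 16.2, 44.5 and 48.9, and differed by 4.55 (SE 0.43). Crct1, a cysteine-rich protein of the epidermal differentiation cluster, stood at 1490, 1850 and 680 against -10.8, 39, 3.65, 58.1 and 56.9, and differed by 4.82 (SE 0.68). All 3 genes repeated the pattern of Krt13, with mutant challenged 2 the lowest of the 3 and with wild-type challenged 2 and mutant challenged 1 the lowest of the 5. Serpinb12, a protease inhibitor of surface epithelium, differed by 4.202 (SE 0.40), and Serpinb3a of the same family was at least 16.1-fold higher.

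Of the cornified layer, Lor, which encodes loricrin, stood at 8750, 9970 and 4730 on the 3 arrays and at 20.2, 260, 13, 273 and 288 on the other 5, a difference of 5.92 (SE 1.19). The high SE goes with the split among the 5, of which 3 held a trace of loricrin. The late cornified envelope genes Lce3f, Lce3b and Lce3c differed by 4.73 (SE 0.66), 4.22 (SE 0.72) and 3.81 (SE 0.54), and cross-binding among these similar copies was not tested. Asprv1, a protease that processes filaggrin, differed by 4.05 (SE 0.48) and Rptn, repetin of the envelope, by 3.90 (SE 0.49). In the basal layer, Krt14 stood at 904, 515 and 492 against 61.7, 122, 29.8, 59.7 and 8.18 and differed by 3.07 (SE 0.47). Trp63, the transcription factor p63 of basal cells, stood at 88.8, 77.8 and 119 against 22.4 to 44.9 and differed by 1.31 (SE 0.08), with mutant challenged 2 highest. Krt15 differed by 1.66 (SE 0.24), Lgals7 by 2.32 (SE 0.23) and Pkp1, a desmosomal plaque protein, by 1.52 (SE 0.28).

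Keratins of dry skin and of other mucosae did not accompany them. Krt1, the main upper-layer keratin of epidermis, stood at -0.171, 2.34 and 5.7 on the 3 arrays and was above background on none of the 8 challenged arrays. Its partner Krt10 was flat, with 298, 338 and 291 against 260 to 329. Krt6a, a keratin of mucosa and of wounded skin, was above background on none of the 8, and of Krt76, of the hard palate, none of the 3 was above background. Krt1, Krt10 and Krt76 were picked for mention with their values in view, and a probe at background can be a probe that does not bind.

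Of the 10 white fat genes apart, 5 were above background on all 13 remaining arrays, and so were 11 of the 23 muscle filament genes, 11 of the 17 muscle calcium and energy genes, 3 of the 16 squamous mucosa genes and 1 of the 17 cornified genes. Cfd, the complement factor adipsin secreted by fat cells, stood at 15800, 12400 and 13900 on the 3 arrays, at 379, 454, 2250, 2780 and 1300 on the other 5 and at 1010 to 3460 on untreated arrays. Its difference was 4.06 (SE 0.58). Cidec, a lipid droplet protein, stood at 341, 282 and 391 against 18.1, -6.55, 105, 90.3 and 31.5 and differed by 3.00 (SE 0.48). On both genes mutant challenged 2 was not the lowest of the 3, and wild-type challenged 2 and 4 were the lowest of the 5. Car3, a carbonic anhydrase abundant in fat and in slow muscle and present on both lists, differed by 4.64 (SE 0.67). Thrsp, a regulator of fat synthesis, stood at 290, 269 and 82 with none of the other 5 above background and was at least 11.0-fold higher. Dgat2, the last enzyme of triglyceride synthesis, stood at 868, 1030 and 304 against 68.2 to 146 and differed by 2.42 (SE 0.51). Mutant challenged 2 was thus closer to the wild-type arrays on Adipoq, Cfd and Cidec than on Thrsp and Dgat2. Fabp4, the fatty acid binding protein of fat cells and endothelium, was above background on none of the 8 challenged arrays.

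Brown fat genes separated the 2 wild-type arrays from the mutant one. Ucp1, the uncoupling protein that defines brown fat, stood at 125 and 162 on wild-type challenged 1 and 3 and at -10.8 on mutant challenged 2, and no other challenged or untreated array was above background. Cidea, a lipid droplet protein of brown fat, stood at 215, 329 and 53.7 against -9.61 to 34.8 and differed by 2.35 (SE 0.67). Cox8b, an oxidase subunit of muscle and brown fat, stood at 1490, 1720 and 358 against 54 to 177 and differed by 2.89 (SE 0.69). The mean log2 level of the brown fat list, relative to the other 5, was 0.97 on both wild-type arrays and 0.31 on mutant challenged 2. Elovl3, a brown fat elongase, was above background on none of the 3.

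Lymphoid genes were raised less. Besides Glycam1, Cxcl13, the chemokine that draws B cells into follicles, stood at 1160, 887 and 599 against 334, 321, 173, 175 and 72 and differed by 1.79 (SE 0.34). Madcam1, an addressin of mucosal lymphoid venules, was above background on none of the 3, and the lymph node stroma list had 18 of 20 members not apart. The B cell genes apart were Pou2af1 (1.18, SE 0.24), Fcrla (1.17, SE 0.27), Ly6d (1.15, SE 0.19) and Tnfrsf13c (1.01, SE 0.23), of which Ly6d is also a squamous gene. Pou2af1, a coactivator of antibody genes, stood at 815, 528 and 474 against 166 to 354. Cd79a, part of the B cell receptor, stood at 613, 358 and 478 against 228 to 309, higher on all 3 arrays with a difference of 0.84 (SE 0.21). Plasma cell genes were high on 1 array alone. Mzb1, a chaperone of antibody secretion, stood at 5880 on wild-type challenged 1, at 1680 and 1690 on the others of the 3 and at 818 to 2480 on the other 5. The T cell receptor gene Cd3e, picked with its values in view, stood at 288, 328 and 235, against 270 to 335.

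Smooth muscle genes were apart in 3 of 17 cases. Hspb6, a small heat shock protein of all muscle types, stood at 4070, 4620 and 2330 against 582 to 914 and differed by 2.07 (SE 0.23). Des, the muscle intermediate filament desmin, differed by 1.19 (SE 0.24), and both are also made by skeletal muscle. Myh11, the smooth muscle myosin, stood at 931, 1010 and 599 against 248 to 534, a difference of 1.14 (SE 0.36), and the 3 arrays lay within the 524 to 1210 of untreated lungs.

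The 73 genes on no list were described after their values were seen. Mup2, a major urinary protein made by liver and also reported in fat, stood at 2070, 529 and 894 against 11.8, -5.04, 52.2, 103 and 49.5, a difference of 4.56 (SE 0.67), and its near-identical relatives Mup1 and Mup6 followed the same order of arrays. H19, an imprinted non-coding RNA retained in adult skeletal muscle, stood at 858, 1160 and 445 against 19.9 to 42 and differed by 4.06 (SE 0.37). Defb4, a beta-defensin of surface epithelium, stood at 489, 806 and 230 against 9 to 37.7 and differed by 3.54 (SE 0.46). Mup2 was highest on wild-type challenged 1, whereas H19 and Defb4 followed the muscle order. Rpl3l, the muscle form of a ribosomal protein, differed by 3.28 (SE 0.39) and Perm1, a regulator of muscle mitochondria, by 2.68 (SE 0.55). Adig, adipogenin of fat cells, was at least 10.4-fold higher and Calm4, a calmodulin-like protein of epidermis, at least 10.6-fold higher. Lum, a matrix proteoglycan, stood at 121, 274 and 101 against 18.2 to 34.6 and differed by 1.95 (SE 0.33), and Vsig4, a complement receptor of resident macrophages, stood at 112, 89.7 and 111 against -7.8 to 23.4 and differed by 1.97 (SE 0.23). The single gene apart downward was Has1, a hyaluronan synthase, with 7.05, 3.4 and 18.2 against 19.8 to 75.5 and a difference of -1.04 (SE 0.35), and untreated arrays reached at most 13.4.

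**Figure D3:**
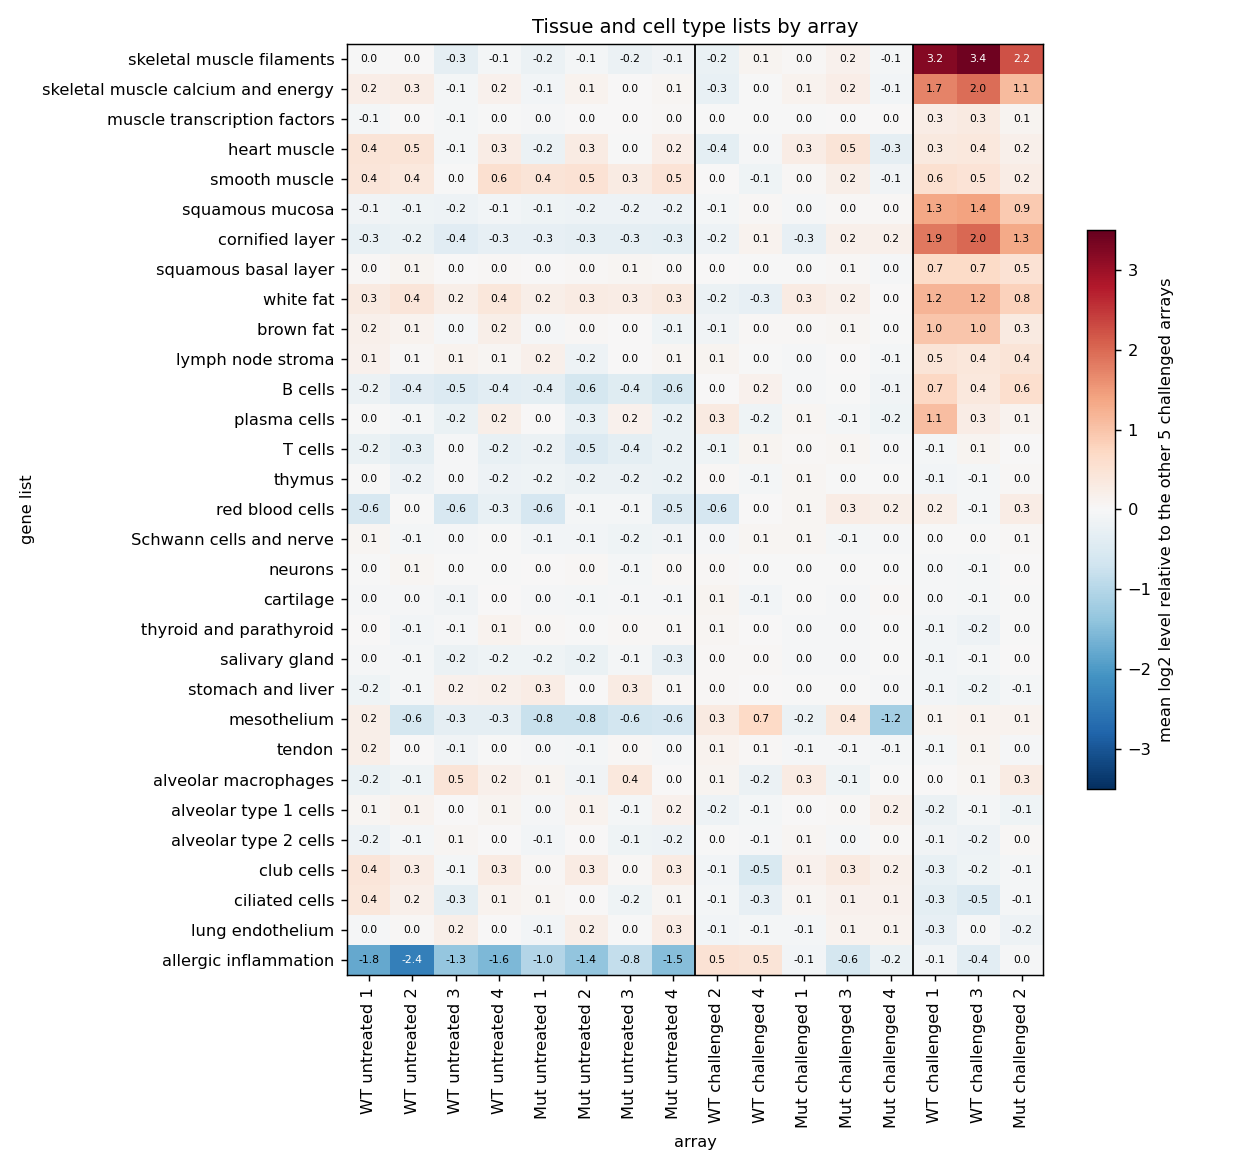
Mean log2 level of each gene list on each array, relative to the mean of the other 5 challenged arrays (colour and printed value), with untreated arrays on the left, the other 5 in the middle and the 3 Acta1-high arrays on the right. Skeletal muscle filaments reach 3.22, 3.42 and 2.24 on the 3 arrays, while brown fat is at 0.97, 0.97 and 0.31 and lymph node stroma at 0.46, 0.40 and 0.45.

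The 3 arrays carried the tissues in different proportions. Of the 172 genes, 117 were highest on wild-type challenged 3, 50 on wild-type challenged 1 and 5 on mutant challenged 2, and 146 were lowest of the 3 on mutant challenged 2. Relative to the mean of the 2 wild-type arrays, mutant challenged 2 was lower by a median log2 difference of -1.30 over the 23 muscle filament genes, -1.02 over the 16 squamous mucosa genes, -1.004 over the 17 cornified genes and -0.44 over the 10 white fat genes. The 4 brown fat genes gave -1.79, and 2 of them, Cox8b and Cox7a1, are also muscle energy genes, whose 17 apart members gave -1.34. The medians between the 2 wild-type arrays were 0.30 for muscle filaments and 0.27 for the cornified layer in favour of wild-type challenged 3, and -0.10 for white fat and -0.53 for B cell genes in favour of wild-type challenged 1. Against these the 4 B cell genes gave -0.30 between mutant challenged 2 and the wild-type mean, and the 2 lymph node genes 0.34, with -1.06 between the wild-type arrays. With 1 mutant array among the 3, these differences describe single lungs and not the genotypes.

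Traces of the same genes on the other 5 arrays were uneven. Of the 46 genes that no untreated array showed above background, wild-type challenged 2 showed 1, wild-type challenged 4 showed 10, and mutant challenged 1, 3 and 4 showed 2, 8 and 10. The 3 Acta1-high arrays showed 45, 46 and 45. The traces included 4 of 10 squamous mucosa genes on each of wild-type challenged 4 and mutant challenged 3 and 4, and 3, 2 and 3 of 10 cornified genes on the same arrays in that order. Muscle filament genes gave 2, 1 and 2 of 7 on them, 1 on mutant challenged 1 and 0 on wild-type challenged 2.

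Whether these tissues enter the study's own comparisons was examined by testing challenged against untreated lungs, averaged over the genotypes, with all 16 arrays and with the 13 left after removing the 3. Over 12086 features above background on at least 3 arrays, limma called 4276 (35.4%) with all arrays and 4285 (35.5%) without the 3, at an adjusted p under 0.05. In both, 3575 were called, all with the same direction. Of the 170 genes apart upward that entered the test, 50 were called with all arrays, 46 of them higher after challenge, and 53 without the 3 arrays, 25 of them higher. Their median log2 change was 0.70 with and 0.01 without the 3 arrays. These genes were picked for being highest on the arrays left out, which fixes the direction of that shift, and 30 of the 170 passed the filter through those 3 arrays alone, so the counts support nothing by themselves.

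Of 29 tested white fat genes, 14 went from a positive to a negative change without the 3 arrays, 10 were negative in both fits and 5 positive in both. With all 16 arrays, 3 of the 29 were called higher and 2 lower after challenge, with a median log2 change of 0.15. The shares among all features were then 17.5% higher and 17.9% lower. Without the 3 arrays 2 were called higher and 15 lower, with a median of -0.36, against shares of 18.5% higher and 16.9% lower among all features. The arrays left contributed unevenly to this average over genotypes. Relative to the other 5, the mean log2 level of the white fat list was -0.19 and -0.29 on wild-type challenged 2 and 4. It was 0.29, 0.18 and 0.01 on mutant challenged 1, 3 and 4, and 0.21 to 0.41 on untreated arrays. Adipoq changed from 0.77 (limma adjusted p = 0.480) to -1.02 (limma adjusted p = 0.00313), and Cfd from 0.63 (limma adjusted p = 0.529) to -0.98 (limma adjusted p = 0.00611). The removed arrays were the 3 highest for both genes, and among challenged arrays for the other white fat genes apart. For those genes the direction of the shift was fixed in advance, so the sign changes, counts and changed calls support nothing by themselves. Smooth muscle genes called lower went from 5 to 9 of 16, and none was called higher in either fit.

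Among all features, 17.5% were called higher and 17.9% lower with all arrays, and 18.5% and 16.9% without the 3. Muscle filament genes other than Acta1 went from 6 called higher and 1 lower of 29 to 2 and 2, and their median log2 change from 0.86 to 0.04. Cornified genes went from 12 higher and 1 lower of 21 to 8 and 1, with medians of 1.03 and 0.22. Squamous mucosa genes went from 15 higher and 3 lower of 31 to 14 and 4, with medians of 0.70 and 0.22. Each of these lists held members that passed the filter through the 3 arrays alone, such as Myh2, Lce1d and Sprr3. Members apart were highest on the arrays left out, so the direction of these falls was fixed in advance and they support nothing by themselves. Krt13 changed by 3.35 (limma adjusted p = 0.0217) with all arrays and by 1.01 (limma adjusted p = 0.0254) without the 3. The count of allergic inflammation genes called higher was 25 of 27 in both fits, with medians of 1.49 and 1.64. Single members of that list did shift. Retnlb changed by 1.14 (limma adjusted p = 0.0299) with all arrays and by 1.85 (limma adjusted p = 3.48e-06) without the 3.

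**Figure D4:**
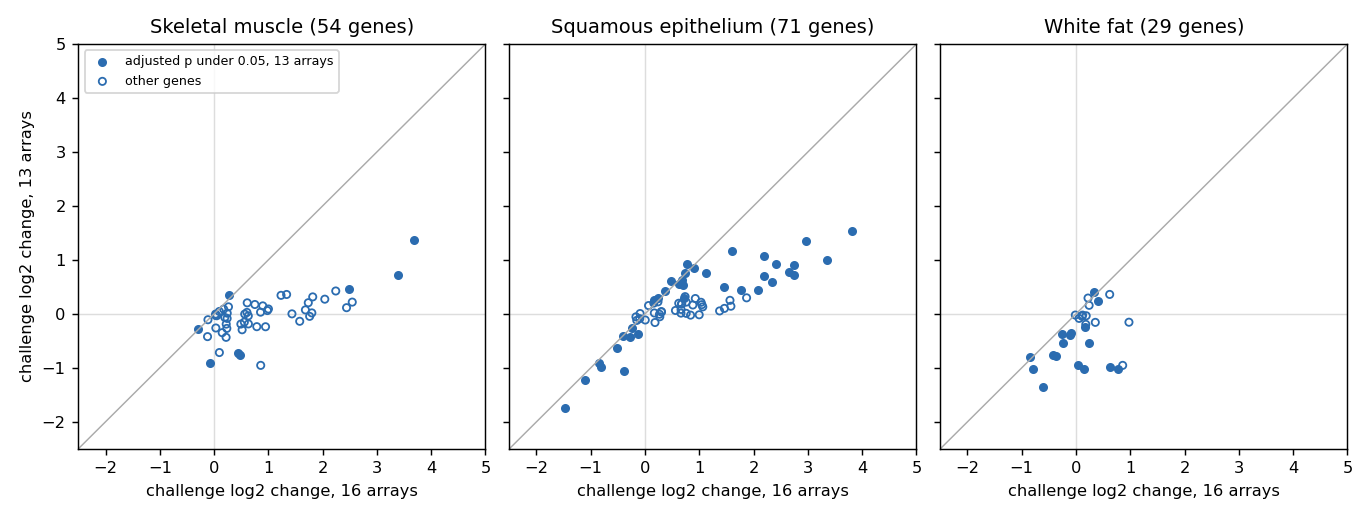
Log2 change after challenge, averaged over genotypes, with all 16 arrays (horizontal) and without the 3 Acta1-high arrays (vertical) for tested genes of the skeletal muscle lists without Acta1, the squamous lists and white fat; filled points have an adjusted p under 0.05 in the fit of 13 arrays and the grey line marks equal values. Most points lie below the line, and 24 of the 29 white fat genes lie below 0 on the vertical axis, with a median of -0.36. For members apart upward a place below the line follows from the choice of the arrays removed.

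The comparison of mutant with wild-type challenged lungs was unbalanced for these tissues, since 2 of 4 wild-type and 1 of 4 mutant arrays carried them. With all arrays limma called 2 of 12086 features (0.0165%), both lower in the mutant. Without the 3 arrays, with 2 wild-type and 3 mutant arrays left, it called 56 (0.463%), 14 higher (0.116%) and 42 lower (0.348%), which included both of the former. The features with an unadjusted p under 0.05 numbered 1463 and 1481. The median log2 difference of muscle filament genes went from -1.01 to 0.06, and none of the 29 was called in either fit. The arrays left out were chosen by Acta1, a gene of the same tissue, so that shift follows from the choice and supports nothing by itself.

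Among list genes, Retnlb, a goblet cell protein of allergic airways, was lower in the mutant by a log2 difference of -2.84 (limma adjusted p = 4.44e-05) without the 3 arrays and -1.32 (limma adjusted p = 0.354) with them. Ccl24, the eosinophil chemokine eotaxin-2, gave -3.66 (limma adjusted p = 0.00128) and -2.44 (limma adjusted p = 0.144). The fat genes Adipoq and Cfd were called higher in the mutant without the 3 arrays, by 2.11 (limma adjusted p = 0.0166) and 2.24 (limma adjusted p = 0.0166). With all arrays the same genes differed by 0.08 and 0.42, neither called. The calls of Adipoq and Cfd rest on the low values of wild-type challenged 2 and 4 given above, a pair of arrays. Those of Retnlb and Ccl24 rest on the same pair as the wild-type side, and neither gene was called with all arrays.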

How the data were processed

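Lung RNA was extracted with Trizol, cleaned on columns and labelled with biotin, per the labels' protocols. The deposited values are linear intensities, and the values themselves show background subtraction by the authors (23.5% to 23.8% per array lie below 0) and quantile normalisation (an upper quartile of 220.674 on every array). Per the submitters' processing notes GenomeStudio 2011.1 is among the tools, with its role unstated. Slides and scan dates were unknown, so batches were not tested, and the number of arrays limits the precision. A second deposited table with 32 value columns whose names match no label was used for probe symbols alone.

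A normal-exponential model with noise centred at 0 (SD 10.2, from the negative values) was applied with an offset of 16, then log2, so differences of dim genes are understated. The brightest of a gene's probes was used. Of 25697 probes, 23978 were named from the platform annotation, 1218 from the deposited symbol column, and 501 stayed unnamed. A gene not above the background limit of 16.8 on any array of 1 side has a bound, the mean of the bright side against the higher of the limit and the dim signal. The bound is not adjusted for genotype. The 3 against 5 differences and SEs came from a linear fit with a genotype term over all 17850 features with no filter on low values. Challenge and genotype were tested by limma (version 3.58.1, R 4.3.3) with 1 coefficient per group, Benjamini-Hochberg over 12086 features. The test was checked on simulated data.

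The members and lists were chosen with earlier results of these data known. Named genes were the 4 markers, the 12 of largest difference upward and up to 8 downward, up to 6 members of largest difference per list, first-listed members at background, and up to 6 list genes of smallest p per test. Same-numbered wild-type and mutant challenged arrays had correlations of deviations from -0.50 to 0.26, with 1 of 4 best matched to its own number. The Acta1-high arrays carry different numbers in the 2 genotypes and enter these correlations, so the check cannot decide whether the numbers pair the mice. The main fits did not use the numbers, and fits with a replicate block are given below.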

Additional observations from a re-analysis of the deposited data

Results flagged for a closer look

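Within each group of 4 arrays, the gap between an extreme array and its nearest neighbour was compared with the whole range of the group, for the 4 marker genes and 31 list scores. Of 140 such checks 8 passed Dixon's limit for 4 values, where chance alone would pass about 1 in 20. Mutant challenged 2 was the high array in 6 of them, with a gap of 0.895 of the range for skeletal muscle filaments, 0.910 for squamous mucosa, 0.846 for lymph node stroma, 0.847 for B cells, 0.884 for Acta1 and 0.882 for Glycam1. It was the 1 mutant array picked for high Acta1, so its gaps for Acta1 and the muscle list follow from that choice and those for the other items are not independent of it, and none of the 6 is to be set against the chance rate. The challenged wild-type group, which held 2 of the 3 Acta1-high arrays, passed none for these items, since its arrays form 2 pairs. The remaining cases were the thyroid and parathyroid list, low on mutant untreated 2 with a gap of 0.847, and Krt13 on wild-type untreated 4 with a gap of 0.830, at values that are all below background.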

How the results depend on the processing

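Over 16 results and their alternatives, 203 of 262 recomputed values stayed within the replicate spread or within 1.5 times the count, 59 moved further and 0 changed direction. A count could not be labelled as changing direction. The replicate spread was the SD among the 3 Acta1-high arrays, which are of both genotypes. It was 1.20 for Glycam1 and 0.25 for Adipoq, so the limit was wide for some results. The 172 genes apart upward became 82 at a log2 difference of at least 2, and ranged from 163 to 207 when 1 challenged array was left out. The 1 gene apart downward became 6 with a floor at the background limit, 0 with an offset of 50, at a difference of 2 and with limma's own fit of the background (chosen after seeing the data), 61 with wild-type arrays alone, and 1 to 18 with 1 array left out, the highest without mutant challenged 2. With wild-type arrays alone the list medians rose to 2.99 for muscle filaments, 0.67 for squamous mucosa, 1.55 for the cornified layer and 0.48 for the basal layer. With an offset of 50 they were 0.69 for the cornified layer, 0.18 for the basal layer and 0.080 for lymph node stroma. The basal layer gave 0.38 with no genotype term, and lymph node stroma 0.094 with the floor and 0.21 with limma's fit. The cause of these shifts was not tested.

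The mutant against wild-type calls numbered 56 without the 3 arrays, 1 with the floor, 4 with an offset of 50, 1 with arrays centred on the median and 1 with the replicate block, against 2 with all arrays. With 1 array left out they ranged from 1 to 18, the highest without mutant challenged 2, and were 1 without wild-type challenged 2 or 4 or mutant challenged 1, 3 or 4. Challenge calls ranged from 3761 to 4592. The replicate block gave 160 genes apart upward, 1 downward and 4171 challenge calls. With 1 challenged array left out, the log2 differences ran from 6.45 to 7.996 for Acta1, 5.64 to 6.65 for Krt13, 4.19 to 5.61 for Adipoq and 3.17 to 4.25 for Glycam1, and the list medians from 2.01 to 2.99 for muscle filaments, 1.26 to 1.86 for muscle calcium and energy, 0.28 to 0.67 for squamous mucosa, 1.04 to 1.55 for the cornified layer, 0.27 to 0.48 for the basal layer, 0.55 to 0.81 for white fat, 0.13 to 0.21 for lymph node stroma and 0.44 to 0.66 for B cells.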
